A study of Mus musculus with 12 samples.

Results

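The proteasome and the molecular chaperones keep the protein content of a cell in order, and 123 mouse genes of these families were examined here among 21631 protein-coding genes on the autosomes and the X chromosome. The members were picked by a symbol rule from the RefSeq annotation of the assembly GRCm38. That choice was made with earlier results of these data known, so their shares are descriptions. They are 39 proteasome genes (8 Psma, 11 Psmb, 6 Psmc and 14 Psmd), 9 Cct genes, 45 genes of the J-domain families (4 Dnaja, 13 Dnajb and 28 Dnajc) and 30 genes whose symbol starts with Hsp. Hspg2, among the Hsp genes, encodes perlecan, a proteoglycan of basement membranes and no chaperone, and it is kept because its symbol meets the rule.

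The measurement was DMC1 single-stranded DNA sequencing (SSDS) of whole testis of adult males. The recombinase DMC1 covers the single-stranded DNA that meiotic double-strand breaks expose, and an interval enriched in this DNA is called a hotspot. One group is the Ankrd31 knockout, which carries the allele Ankrd31 tm1Atot (background strain not stated). The other is the wild type, C57BL/6JCrl. Each has 2 DMC1 samples but 1 deposited hotspot list, so every value below stands for a list and not for an animal, no difference between the genotypes can be set against a spread between mice, and no test was made. The Ankrd31 knockout list holds 22034 hotspots with 4203380 reads and the wild type list 13480 hotspots with 4376692 reads. Strength is the deposited read count of a hotspot minus its estimated background, and intervals beside it cover counting error only. The assay measures neither expression nor cell types, so the tissue label was not checked against markers.

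The proteasome is a barrel of Psma and Psmb subunits, with the proteolytic sites on Psmb subunits, capped by a regulatory particle with an ATPase ring of Psmc subunits and the Psmd subunits that bind, unfold and deubiquitinate substrates. The Cct genes encode subunits of the TRiC chaperonin, which folds actin and tubulin. J-domain proteins hand substrates to Hsp70 chaperones and stimulate their ATPase, and the Hsp genes encode the Hsp70, Hsp90, mitochondrial chaperonin and small heat shock proteins. ANKRD31 belongs to the machinery that makes meiotic double-strand breaks. In wild type mice most breaks form where the histone methyltransferase PRDM9 binds, away from promoters, and breaks made without PRDM9 guidance are known to fall on promoters. The question for these genes was which families carried hotspots at their ends in each genotype.

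Hotspots were assigned to a gene by their centre, if it was no more than 1 kb from one of the gene's ends. In the Ankrd31 knockout list 48 of the 123 members had such a hotspot (39.0%, exact binomial interval 30.4 to 48.2), and in the wild type list 2 had one. Over all protein-coding genes the shares were 27.1% in the knockout list and 1.99% in the wild type list. Of the members, 46 had a hotspot at an end that overlapped no wild type hotspot, called knockout-only, while 25.5% of all protein-coding genes had one.

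By family the shares ran as follows. Of the Hsp genes 16 of 30 had a knockout-list hotspot at an end (53.3%, 34.3 to 71.7), and of the Cct genes 5 of 9 (55.6%, 21.2 to 86.3). Of the J-domain genes 16 of 45 had one (35.6%, 21.9 to 51.2), and of the proteasome genes 11 of 39 (28.2%, 15.0 to 44.9), close to the share of all genes. By proteasome subunit class there were 7 of 14 Psmd, 3 of 8 Psma, 1 of 6 Psmc and 0 of 11 Psmb genes. The Psmd count rests on weak hotspots. It was 4 with the weakest 20% of each list left out and 2 with the knockout list cut to the length of the wild type list, where Psma had 2 and Psmc 1 in both. The shares of all genes under these settings were 21.9% and 16%. Among J-domain genes there were 2 of 4 Dnaja, 6 of 13 Dnajb and 8 of 28 Dnajc. The intervals of the Hsp, Cct, J-domain and proteasome families overlap. That of the Psmb class, the class with the lowest share, is 0 to 28.5 and includes the 27.1% of all genes. No difference between families or classes was tested.

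**Figure D1:**
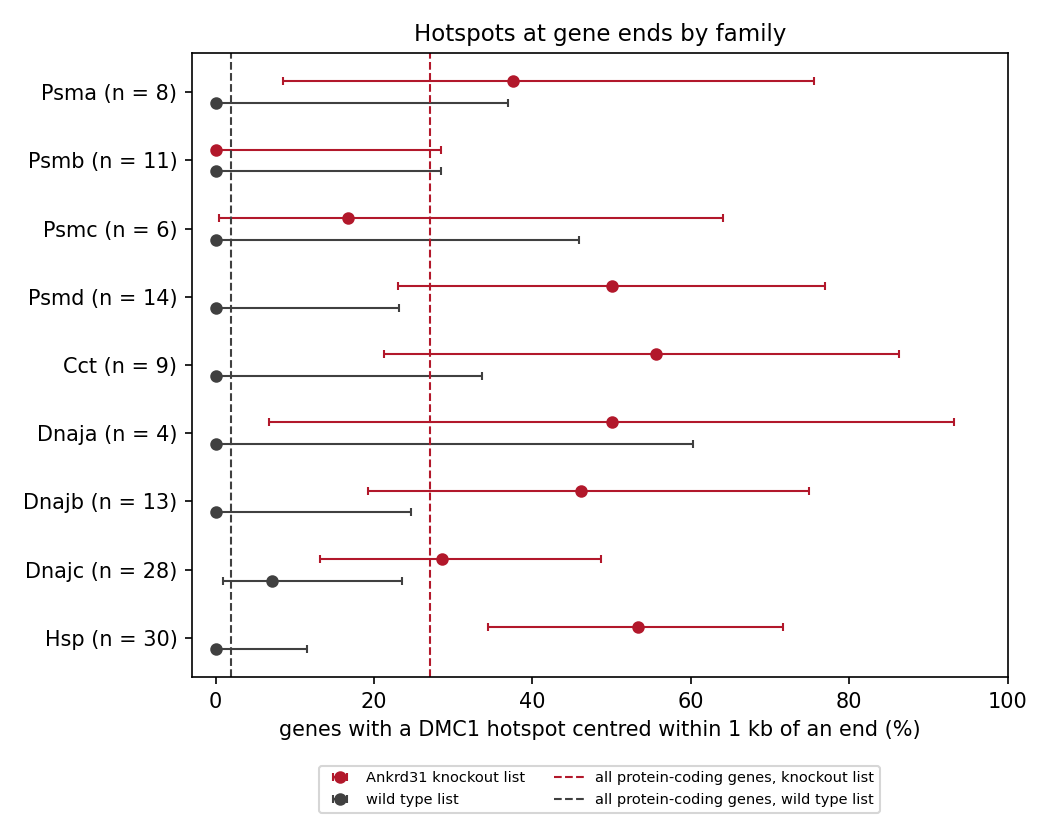
Share of the genes of each family with a hotspot centred within 1 kb of a gene end, in percent, in the Ankrd31 knockout list (red) and the wild type list (dark grey); bars are exact 95% binomial intervals over genes and dashed lines the shares of all protein-coding genes. The Psmb class has 0 genes in the knockout list, and Dnajc is the class with wild type genes, 2 of 28.

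The promoters of 7 members are shown because they carry the contrast within the families. For each family it is the member with the strongest knockout hotspot at its 5′ end among those whose RefSeq start is the annotated gene end and whose 250 bases before it overlap no other annotated gene. They are followed by 3 members with no hotspot at an end, picked after their values were seen. Each line gives the 250 bases before the RefSeq start, read 5′ to 3′ on the gene's strand, build GRCm38.p6. Capitals mark matches, on either strand, to 4 motifs: the heat shock element GAANNTTC, the CCAAT box CCAAT, the ETS site CCGGAAG and the NRF1 site. NRF1 here is nuclear respiratory factor 1 and not the product of Nfe2l1. The first 4 genes had a knockout hotspot and Hspa1a, Hspb1 and Psmb5 had none.
Hspa14: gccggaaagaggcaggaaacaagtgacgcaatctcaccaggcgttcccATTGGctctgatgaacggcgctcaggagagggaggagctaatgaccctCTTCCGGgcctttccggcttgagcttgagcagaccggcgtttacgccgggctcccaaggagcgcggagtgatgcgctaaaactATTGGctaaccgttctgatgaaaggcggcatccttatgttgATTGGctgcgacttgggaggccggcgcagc
Psmd14: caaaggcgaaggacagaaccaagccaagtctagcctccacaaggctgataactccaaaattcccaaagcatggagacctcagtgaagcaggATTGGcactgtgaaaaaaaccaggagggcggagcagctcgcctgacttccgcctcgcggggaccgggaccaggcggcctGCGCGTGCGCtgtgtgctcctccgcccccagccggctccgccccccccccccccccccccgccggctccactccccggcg
Dnajc9: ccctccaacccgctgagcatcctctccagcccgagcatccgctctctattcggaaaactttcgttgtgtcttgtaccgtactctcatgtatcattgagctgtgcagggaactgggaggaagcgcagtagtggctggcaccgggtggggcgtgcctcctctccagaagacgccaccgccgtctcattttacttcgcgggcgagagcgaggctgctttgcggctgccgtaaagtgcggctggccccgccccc
Cct2: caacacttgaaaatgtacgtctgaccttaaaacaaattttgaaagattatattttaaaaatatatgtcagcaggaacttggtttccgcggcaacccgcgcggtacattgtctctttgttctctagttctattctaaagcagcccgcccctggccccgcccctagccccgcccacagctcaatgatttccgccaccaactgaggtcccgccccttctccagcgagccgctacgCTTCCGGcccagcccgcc
Hspa1a: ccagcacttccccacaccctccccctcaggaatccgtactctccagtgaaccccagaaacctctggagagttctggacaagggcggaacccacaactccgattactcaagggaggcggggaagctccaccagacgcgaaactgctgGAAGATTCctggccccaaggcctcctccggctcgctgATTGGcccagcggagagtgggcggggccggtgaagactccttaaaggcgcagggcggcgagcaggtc
Hspb1: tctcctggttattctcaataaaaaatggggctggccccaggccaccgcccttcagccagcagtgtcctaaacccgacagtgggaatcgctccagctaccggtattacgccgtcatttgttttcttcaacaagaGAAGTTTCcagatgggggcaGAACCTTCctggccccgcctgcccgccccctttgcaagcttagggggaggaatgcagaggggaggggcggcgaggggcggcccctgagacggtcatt
Psmb5: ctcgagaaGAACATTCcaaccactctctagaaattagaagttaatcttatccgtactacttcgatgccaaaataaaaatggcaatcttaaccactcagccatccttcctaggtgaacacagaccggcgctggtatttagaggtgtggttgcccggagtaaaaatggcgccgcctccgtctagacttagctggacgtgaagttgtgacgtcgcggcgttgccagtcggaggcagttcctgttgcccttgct

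These stretches lie on chromosome 2 for Hspa14 (chr2:3512815-3513064, minus strand) and Psmd14 (chr2:61711444-61711693, plus strand), on chromosome 14 for Dnajc9 (chr14:20388911-20389160, minus strand) and Psmb5 (chr14:54617996-54618245, minus strand), and on chromosome 10 for Cct2 (chr10:117063853-117064102, minus strand). Those of Hspa1a (chr17:34972157-34972406, minus strand) and Hspb1 (chr5:135887669-135887918, plus strand) follow. A heat shock element stands in the Hspa1a, Hspb1 and Psmb5 promoters, with 2 in Hspb1, and in none of the other 4. This split comes from the choice of promoters shown, since those of Psmb3, Psmb4 and Dnajb1 hold no such element and their genes had no hotspot either.

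Of the 19 core particle genes, 3 had a knockout hotspot at an end (15.8%, 3.38 to 39.6), an interval that includes the 27.1% of all genes. Psma8, the alpha subunit of the testis proteasome, had a knockout hotspot of strength 128 (106 to 153) centred 41 bp outside the end of the gene. Psma4 had one of 105 (85.4 to 128) centred 135 bp inside its 5′ end, at a site that also lies within 1 kb of an end of Hykk and of AY074887. Psma1 had the weakest of the Psma hotspots, at 56 (41.3 to 73.7). Psma2, Psma3, Psma5, Psma6 and Psma7 had none at an end in either list.

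The 11 Psmb genes had no hotspot at an end in the knockout list or in the wild type list, and an exact interval for 0 of 11 reaches 28.5%, which includes the 27.1% of all genes. They include Psmb5, Psmb6 and Psmb7, which carry the proteolytic sites, their immunoproteasome counterparts Psmb8, Psmb9 and Psmb10, and the thymic Psmb11. The nearest knockout hotspot lay 4369 bp from an end of Psmb3, 7614 bp from Psmb6 and 8098 bp from Psmb5, and the median distance for the 11 genes was 19288 bp. Psmb8 and Psmb9, both on chromosome 17, were the farthest, at 111795 and 125919 bp.

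In the regulatory particle, Psmc2 was the ATPase subunit gene with a knockout hotspot, of strength 158 (133 to 186). That hotspot, chr5:21784026-21786170, also lies at an end of Dnajc2, which encodes a ribosome-associated J-domain protein, so it counts for both families. Psmc1, Psmc3, Psmc4, Psmc5 and Psmc6 had none, and the nearest knockout hotspot to Psmc6 lay 2055 bp from its end.

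Of the 7 Psmd hotspots, 5 were below the median strength of the knockout list, 105. Psmd14, the gene of the deubiquitinase that removes ubiquitin chains from substrates, had a strength of 141 (118 to 167), centred 77 bp inside its 5′ end. Psmd10, which encodes the assembly chaperone gankyrin and is the single X-linked member, had 128 (106 to 153). Knockout hotspots at protein-coding gene ends had a median strength of 284 on X and 93 on the autosomes, so Psmd10 was below the median of its chromosome. The other Psmd genes had lower strengths. Psmd13 had 80, at a site also within 1 kb of an end of the deacetylase gene Sirt3, and Psmd6 had 65. Psmd12 had 49, Psmd11 had 43 and Psmd3 had 31, and the last 2 rank 20486 and 21771 of the 22034 knockout hotspots.

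Of the chaperonin genes, Cct8 had the strongest knockout hotspot, at 143 (120 to 169), centred 7 bp outside its 5′ end. Cct7 had 114 (91.9 to 139), Cct2 had 72, Cct5 had 71 and Cct4 had 53. The Cct7 hotspot is also at an end of Pradc1 and the Cct5 hotspot at an end of Atpsckmt. Cct3, Cct6a, Cct6b, whose product replaces that of Cct6a in testis, and Cct8l1 had none at an end in either list.

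The J-domain genes held the strongest hotspot at any member end. At Dnajc10, which encodes a disulfide reductase of the endoplasmic reticulum, a hotspot at the 3′ end (chr2:80352882-80354626) had a strength of 331 (295 to 370) in the knockout and overlapped a wild type hotspot of 1347 (1275 to 1421) that ranked 430 of the wild type list. The same gene had a knockout-only hotspot of 81 at its 5′ end. Dnajc9, a histone chaperone gene, was the other member so marked in the wild type list. Its 5′ hotspot had 146 (122 to 173) in the knockout and 90 (71.6 to 111) in the wild type. These 2 pairs therefore went in opposite directions, with log2 ratios of knockout over wild type as deposited of -2.02 for Dnajc10 and 0.70 for Dnajc9.

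Knockout-only hotspots of 236 stood at Dnajb4, a cytosolic partner of Hsp70, and at Dnajc21, whose product acts in ribosome assembly. The Dnajb4 site is also at an end of Fubp1. Dnaja1, the main cytosolic J-domain protein gene, had 159 (134 to 187). Lower values were seen at Dnajc27 (122), Dnajb5 (116), Dnajc3, which encodes a J-domain protein of the endoplasmic reticulum (110), Dnajb3 (107) and Dnaja3, which encodes a mitochondrial one (81). At Dnajc13, an endosomal J-domain gene, the strength was 80, at Dnajb12 it was 57, at Dnajb2 it was 52, and Dnajb6 and Dnajc7 had 48 each. The Dnajc7 site is also at an end of Nkiras2.

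A list of 7 constitutive and organelle chaperone genes and a list of 6 heat-inducible ones were counted, beside the 27.1% of all genes. Both lists were made with earlier results of these data known, so the contrast between them is a description. All 7 of Hspa8, Hspa5, Hspa9, Hsp90ab1, Hsp90b1, Hspd1 and Hspe1 had a knockout hotspot at an end (100%, 59.0 to 100). Of the 6 heat-inducible genes Hsp90aa1, Hspa1a, Hspa1b, Hsph1, Hspb1 and Dnajb1, 1 had one (16.7%, 0.421 to 64.1). Hspd1 and Hspe1 share 1 hotspot and both count, and the list of 7 does not hold every gene expressed without stress: Hspa4, Cct3, Cct6a and Dnaja2 had no hotspot at an end. The difference was not tested. Hsp90ab1, the constitutive cytosolic Hsp90 gene, had the highest strength of the family, 258 (227 to 292), at chr17:45572309-45574883. Hspa8, the constitutive Hsp70, had 163 (138 to 191), Hspa5, the Hsp70 of the endoplasmic reticulum, had 154 (130 to 181) and Hsp90b1, its Hsp90 partner there, had 125 (103 to 150). The Hsp90b1 site is also at an end of Ttc41. Hspa9, the mitochondrial Hsp70, had 99 (78.6 to 122).

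Hspd1 and Hspe1 encode the subunits of the mitochondrial chaperonin and lie head to head on chromosome 1. They shared 1 knockout hotspot of strength 225 (196 to 257), chr1:55087033-55088873, centred 290 bp inside the Hspd1 5′ end and 195 bp outside that of Hspe1. Hsp90aa1 was the heat-inducible gene with a hotspot, of 152 (127 to 180). The promoters of Hspa1a and Hspa1b are identical at 296 of 300 bases (98.7%), and the handling of reads that fit both copies was not stated, so the lack of a hotspot at these 2 genes is uncertain. No such copy was considered for Hsph1, Hspb1 and Dnajb1, whose nearest knockout hotspots lay 299607, 21322 and 2212 bp from an end.

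Of 10 listed germ-cell chaperone genes, 2 had a knockout hotspot at an end, a share of 20% (2.52 to 55.6) whose interval includes the 27.1% of all genes. Hspa2, the Hsp70 that spermatocytes need to complete meiosis, had a strength of 108 (83.8 to 135) on a background of 57 reads, the highest background of any member hotspot. Dnajb3, a J-domain gene of spermatids, had 107 (87.2 to 130). Hspa1l, Hspb9, Cct6b, Dnajb7, Dnajb8, Dnajb13, Dnajc5b and Dnajc5g had none. Hspa4l, which encodes an Hsp110 abundant in testis and is not among the 10, had 228 (199 to 260), but centred 967 bp inside its 5′ end, the position nearest to the edge of the window.

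The remaining Hsp hotspots belong to genes with varied roles. Hspa14, a ribosome-associated Hsp70, had 173 (146 to 203) at a site also at an end of Cdnf. Hspa13, a microsomal Hsp70, had 165 (140 to 193), and its hotspot touched a wild type hotspot of 83 centred 2041 bp from the gene end, so it is not knockout-only. Hspb11, an intraflagellar transport gene despite its name, had 99, Hspbp1, a nucleotide exchange factor gene, 64, Hspg2 60 and Hspb6, a small heat shock protein gene, 59. The Hspb11 site is also at an end of Lrrc42 and the Hspb6 site at an end of Proser3. Of the 8 Hspb genes with a number, Hspb6 and Hspb11 were the 2 with a hotspot at an end.

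**Figure D2:**
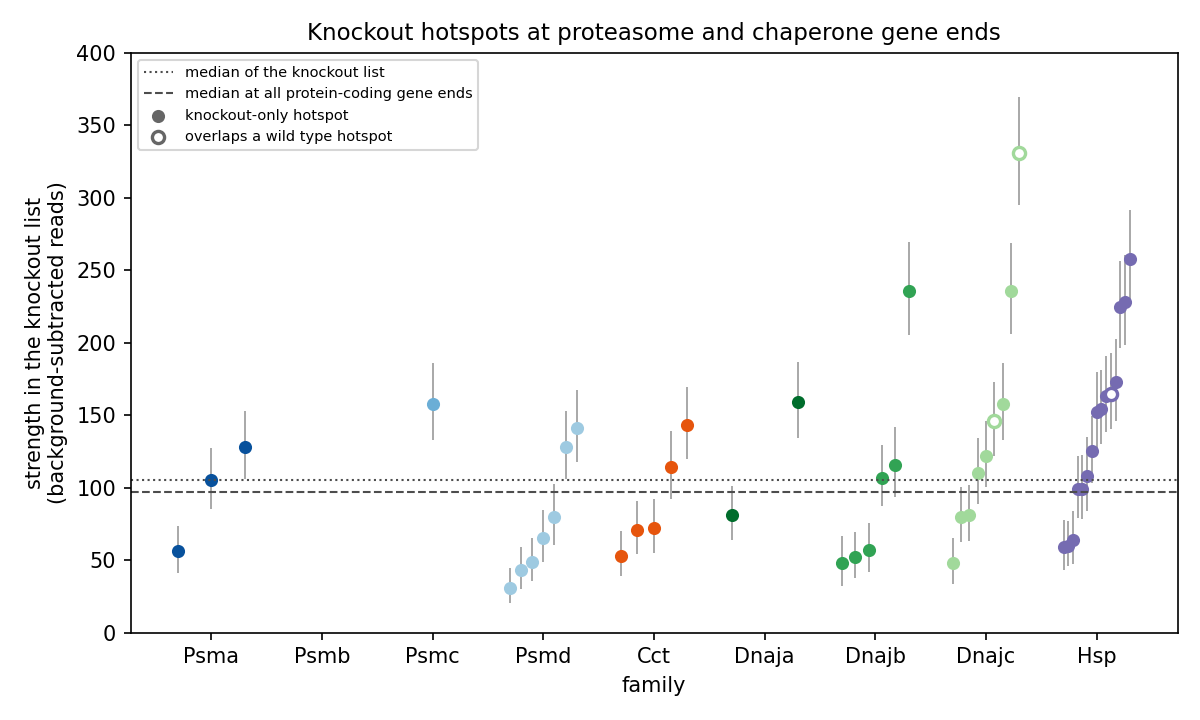
Strength in the Ankrd31 knockout list of each hotspot at a member's end, by family, with 95% counting intervals (grey); open symbols overlap a wild type hotspot. The highest point is Dnajc10 at 331 and the lowest Psmd3 at 31, and the lines mark the medians of the whole list (105) and of hotspots at all protein-coding gene ends (97).

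In all, 47 different knockout hotspots stood at member ends, 44 of them knockout-only, and together they held 0.141% of the strength of the list. Their median strength was 108 (range 31 to 331), against 97 for the 5291 knockout hotspots at any protein-coding gene end and 105 for the whole knockout list. The strongest ranked 2833. By family the medians were 152 for the 15 Hsp hotspots, 110 for 17 J-domain, 80 for 11 proteasome and 72 for 5 Cct hotspots, with ranges that overlap. Of the 47, 12 were also within 1 kb of an end of another protein-coding gene, and to which gene such a hotspot belongs cannot be told apart. Of all gene-end hotspots 12.8% were at 2 or more genes. A hotspot at 2 genes has more chances to stand at a member, so this share is not a like comparison for the 12 of 47. A share weighted by genes was not computed.

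The RefSeq promoter table gives the strand of 101 members, which separates starts from 3′ ends. Of these, 39 had a knockout hotspot at the 5′ end (38.6%, 29.1 to 48.8) and 2, Dnajc10 and Dnajb3, at the 3′ end. The shares of all genes with a strand were 26.2% and 2.19%. Dnajb3 is so short that 1 hotspot lies within 1 kb of both its ends, centred 106 bp inside the start. By family the 5′ counts were 11 of 24 Hsp, 4 of 8 Cct, 15 of 37 J-domain and 9 of 32 proteasome genes.

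Hotspots were centred close to the start. The median distance from the 5′ end was 135 bp over the 39 members and 155 bp over all genes with such a hotspot, and 28 of 39 lay within 250 bp, against 69.0% of all genes. The centre was inside the gene in 25 of the 39 and outside it in 14, and over all genes it was inside in 67.6%. The median position was 77 bp inside for members and 95 bp inside for all genes. The proteasome hotspots had a median position of 33 bp outside the start, those of J-domain genes 134 bp inside and those of Hsp genes 122 bp inside. At Psmd13 the centre was 352 bp outside and at Hspg2 417 bp outside, the farthest on that side.

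**Figure D3:**
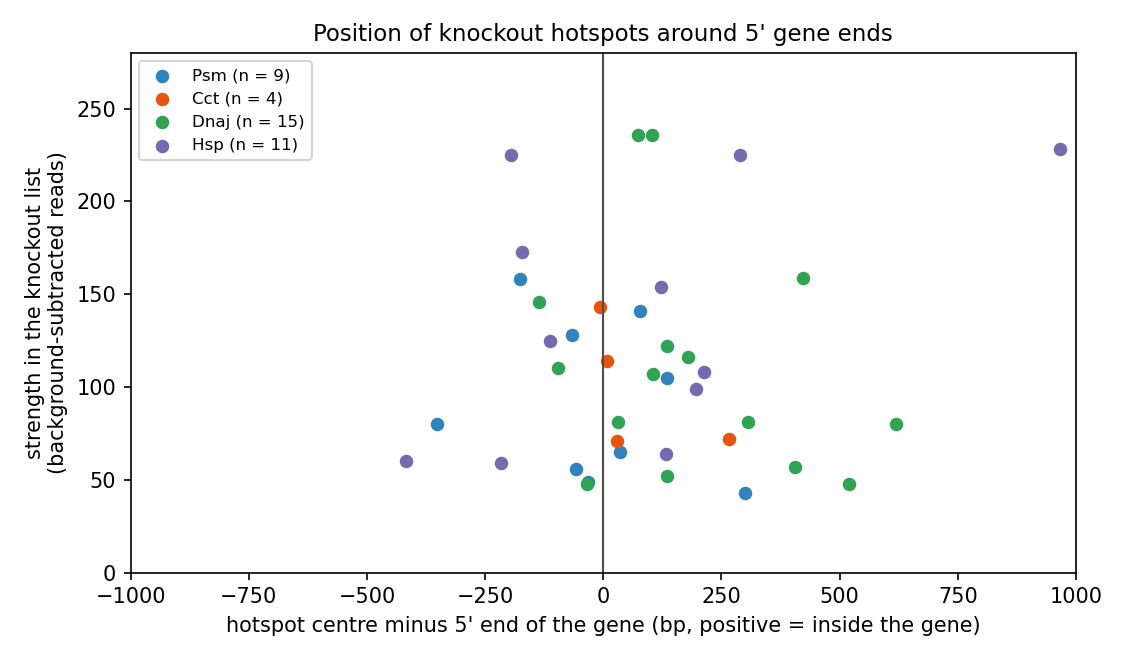
Centre of each knockout hotspot relative to the 5′ end of its gene (horizontal axis, bp, positive inside the gene) against its strength (vertical axis), for the 39 members with a strand and a 5′ hotspot, coloured by family. Most points lie within 250 bp of the start, and Hspa4l lies at 967 bp.

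At the edge of the window, the members just inside were Hspa4l at 967 bp and Dnajc13 at 620 bp, and those just outside were Dnajc1 at 1429 bp and Dnajc5g at 1702 bp. The 75 members without a knockout hotspot at an end had their nearest one at a median of 17724 bp (range 1429 to 364845), and Dnajc5 was the farthest.

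Promoter base composition moved with these counts, and its part in them was not tested. CpG observed over expected is the number of CpG dinucleotides relative to the number its C and G content would give, and 0.6 was used to divide promoters. Of 96 members with a promoter starting within 1 kb of the gene end, 72 were at or above 0.6 (75%), compared with 49.6% of 15534 promoters of all genes. Among these 72, 37 had a knockout hotspot (51.4%), and among all genes at or above 0.6 the share was 47.8%. Of the 24 members under 0.6, 1 had a hotspot, Psmd10 at 0.54, against 10.8% of all genes under it. Within promoters at or above 0.6 the member share was thus near that of all genes, and the same held at a division of 0.75 (52.5% and 50.1%).

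Within promoters at or above 0.6, 10 of 14 Hsp genes had a hotspot, 4 of 7 Cct, 15 of 29 J-domain and 8 of 22 proteasome genes. The 13 Hsp promoters without a hotspot had a median CpG observed over expected of 0.54, and the 10 with one had 0.85. The proteasome medians were closer together, at 0.79 for the 9 with a hotspot and 0.76 for the 22 without. Of 8 Psmb promoters, 3 were at or above 0.6 (37.5%), against 75% of members and 49.6% of all genes, and the median was 0.57. The 3 were Psmb5 (1.00), Psmb3 (0.80) and Psmb6 (0.73), CpG-rich without a hotspot. Those under 0.6 were Psmb4 (0.54), the immunoproteasome genes Psmb8 (0.52), Psmb9 (0.5996) and Psmb10 (0.19), and the thymic Psmb11 (0.17).

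**Figure D4:**
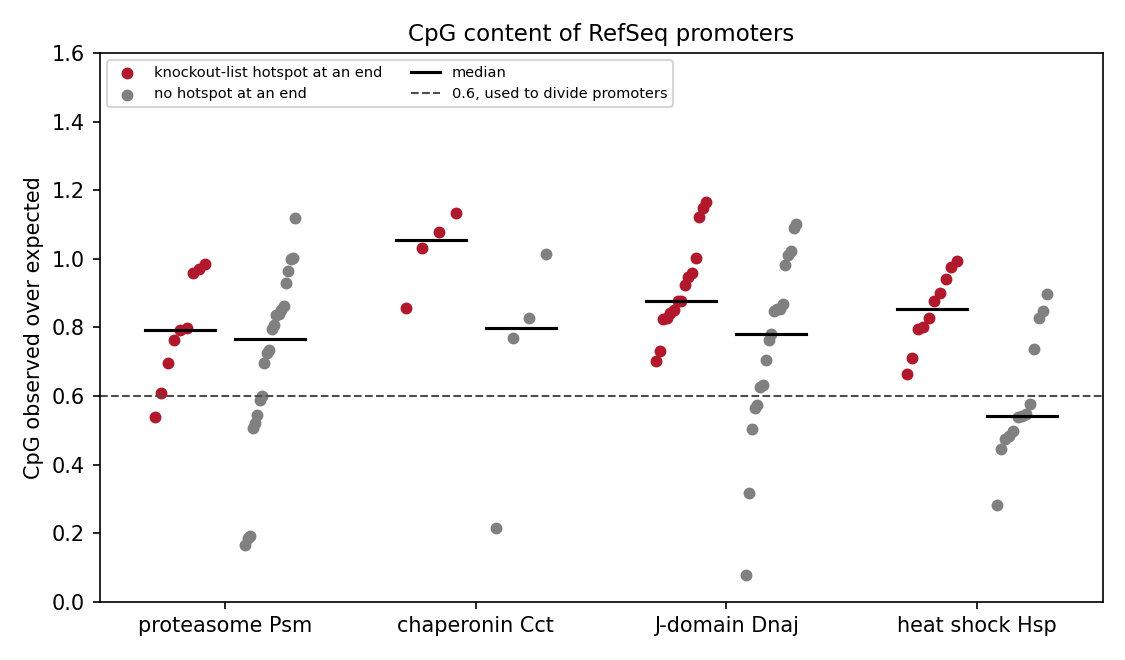
CpG observed over expected of the RefSeq promoters of 96 members, by family, for genes with a knockout-list hotspot at an end (red) and without (grey); bars are medians and the dashed line is 0.6. Of the promoters under 0.6, 1 belongs to a gene with a hotspot.

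A motif match describes letters in the promoter window and not a binding site. The heat shock element occurred in 14 of 96 member promoters, against 7.52% of all promoters, and 4 of these 14 genes had a knockout hotspot, against 20.8% of all genes with that match. They were Dnaja1, Dnajb6, Dnajc27 and Hspe1. In the Hsp family the element occurred in 6 of 13 promoters without a hotspot (Hspa1a, Hspa1b, Hspb1, Hspb3, Hspb8 and Hsph1) and in 1 of 10 with one. Of these 6, all but Hsph1 (0.74) had a CpG observed over expected under 0.6. The lack of a hotspot at Hspa1a and Hspa1b is uncertain. The J-domain family went the other way, with 1 of 19 promoters without a hotspot and 3 of 15 with one. Proteasome promoters had 2 of 22 without and 0 of 9 with one, and Cct promoters 1 of 4 and 0 of 4. The ETS site occurred in 21 member promoters and in 12.2% of all promoters. Of these 21 genes, 14 had a hotspot, against 38.9% of all genes with the site, and 5 were proteasome genes (Psmc2, Psmd6, Psmd11, Psmd12 and Psmd13). Another 4 proteasome genes with the site had no hotspot (Psmc1, Psmc6, Psmd2 and Psmd4). The ETS site itself holds a CpG, and its counts were not divided by CpG content. The NRF1 site occurred in 14 member promoters, 6 of them with a hotspot, against 6.91% of all promoters and a hotspot share of 50.5% among them. The CCAAT box occurred in 39, against 39.8% of all promoters, and 16 of those genes had a hotspot, against 29.9% of all genes with the box.

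Inside the member genes the knockout list had fewer hotspots than the wild type list, unlike at the gene ends. Hotspots centred inside a member gene, over 1 kb from its ends, numbered 20 in 14 genes in the knockout list and 27 in 21 genes in the wild type list. Over all protein-coding genes the knockout share was the higher one, with 21.3% in the knockout list and 18.9% in the wild type list. The members' shares of 11.4% (6.36 to 18.4) and 17.1% (10.9 to 24.9) did not exceed those of all genes. These 2 intervals overlap, and the difference was not tested. Long genes offer more room for such hotspots. Psmb and Psmc genes had none in either list.

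The bodies held 15 hotspots shared by the lists. To compare them, each strength was scaled to the median of the list's own shared autosomal hotspots, 151 in the knockout and 182 in the wild type. This relative strength was lower in the knockout at 12 of the 15, where 62.3% of the 5398 shared hotspots inside protein-coding genes were lower. It was over 2-fold lower at 7 of the 15, while 25.3% of the 5398 were over 2-fold lower. One was over 2-fold higher, where 7.32% of all were. As deposited, 14 of the 15 were lower, 10 were over 2-fold lower, against 33.6% of all, and 0 were over 2-fold higher. The share of all that were lower as deposited was not computed. The median log2 ratio as deposited was -1.21 for the 15 and -0.59 for all 5398. The median log2 ratio of relative strength was -0.94 for the 15 and -0.32 for all 5398.

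The lowest ratios of knockout to wild type lay inside Psmd1, the gene of a scaffold subunit of the regulatory particle, and inside the J-domain genes Dnajc11 and Dnajc27. The Psmd1 hotspot had 162 (136 to 191) in the knockout and 940 (879 to 1004) in the wild type, a log2 ratio of relative strength of -2.27. The hotspot inside Dnajc11, which encodes a mitochondrial J-domain protein, had 334 and 1462 (-1.86). That inside Dnajc27 had 317 and 1272 (-1.74), and that inside Hspa9 had 82 and 260 (-1.40). Lower values in the knockout were also seen inside Dnajc1 (323 and 982), Hspbap1 (65 and 196) and Psma2 (152 and 429). In relative strength 3 of the 15 were higher in the knockout, by 0.12 on the log2 scale in Hspg2, by 0.13 in Dnajc5b and by 1.15 in Dnajc6. The Dnajc6 hotspot, in the gene of auxilin, had 521 (476 to 568) in the knockout and 282 (250 to 317) in the wild type, a log2 ratio of 0.89 as deposited, so it passed 2-fold after scaling alone. A second hotspot in the same gene had 72 and 116.

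**Figure D5:**
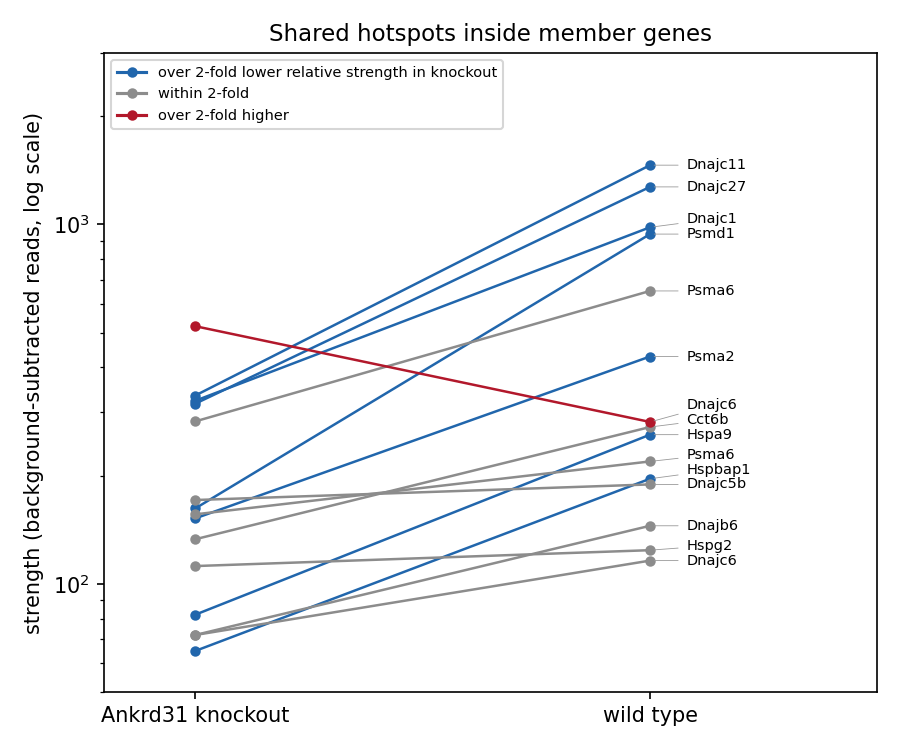
Strength (log scale) of the 15 hotspots shared by the lists and centred inside member genes, in the Ankrd31 knockout (left) and the wild type (right), 1 line per hotspot, coloured by the change in relative strength. In the deposited strength drawn, 10 knockout values are more than 2-fold below the wild type and 0 more than 2-fold above it; in relative strength, which sets the colours, 7 are over 2-fold lower and 1, in Dnajc6, over 2-fold higher.

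Some genes combined both patterns. Dnajc27 had a knockout-only hotspot of 122 at its 5′ end, where the wild type list has none, and a weaker body hotspot than the wild type. Hspa9 had a knockout-only hotspot of 99 at one end, and inside the gene 82 in the knockout and 260 in the wild type. That inner hotspot is centred 1133 bp from the other end in the knockout and 1067 bp in the wild type, so it lies just outside the window there. Hotspots found in the knockout list alone inside member genes numbered 5 (strength 42 to 184), and those in the wild type list alone 11 (37 to 272). The matching numbers over all genes were not computed. The 11 of the wild type list include hotspots inside Hspa14 (272), Psmd14 (179) and Dnajc3 (156), genes whose ends carry knockout-only hotspots. In all, 64 of the 123 members had no hotspot at an end or inside in either list. The share of all genes with none was not computed, so this count cannot be read as high or low.

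Genes of the same pathways with other symbols were also counted. Their list was made with earlier results of these data known, so it gives no independent support for the member counts. The CpG content of their promoters was not examined. Of 65 such genes, 34 had a knockout-list hotspot at an end (52.3%, 39.5 to 64.9), beside the 39.0% of members and the 27.1% of all genes. They were 13 of 23 co-chaperones, 10 of 17 folding and exchange factors of organelles, 4 of 6 transcription factors, 2 of 6 prefoldin genes, 4 of 12 proteasome activators, inhibitor and assembly factors, and Tcp1, the chaperonin subunit that is not named Cct, with a strength of 106. The strongest was at Vbp1, a prefoldin gene on X, with 821 in the knockout and 103 in the wild type. Ahsa2, which encodes an activator of the Hsp90 ATPase, followed with a knockout-only hotspot of 659. At Hsf1, the heat shock transcription factor gene, a hotspot also at an end of Dgat1 had 286 in the knockout and 553 in the wild type. Stip1, the adaptor between Hsp70 and Hsp90, came next with a knockout-only hotspot of 272. Nfe2l2, an activator of proteasome genes under oxidative stress, had 186 and Nfe2l1, which restores proteasome genes after inhibition, had 78.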

How the data were processed

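DMC1-SSDS of 4 adult testis samples, 2 for each genotype, reached the files as 1 hotspot list for each genotype, and the H3K4me3 and input samples were not analysed here. Per the submitters' processing notes, MACS2, BWA, Bowtie2 and CASAVA were used on build mm10, with neither versions nor roles given. Pooling of animals was not stated. Per the file headers, the deposited read count of a hotspot is a whole number. The deposited background signal falls on rounded steps of 2.5 reads, and the deposited strength, a score, equals reads minus background in 100% of hotspots. A further deposited column gives each strength in percent of its list, and the deposited rank is also a score. Total library depth was not used here.

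Genes came from the RefSeq table of GRCm38.p6 and strands from its promoter table, which matched 101 of 123 members. Promoters span 250 bases before to 50 after the start, and were used where the start lay within 1 kb of the gene end. Hotspots of the lists were paired where they overlapped by at least 1 bp. Shares have exact binomial (Clopper-Pearson) intervals and read counts exact Poisson intervals, both at 95% and for counting error only. Python 3.11.15 with pandas 2.3.3, numpy 2.4.6 and scipy 1.17.1 was used. Placement and pairing were checked on simulated hotspots. The members and lists were chosen with earlier results of these data known, and the CpG division of 0.6 after the values were seen. Genes were named as the up to 6 strongest of each family, every member with a wild type hotspot, those next to the window's edge, and fixed classes of subunits and chaperones. Members outside that rule were named after their values were seen. Alternatives changed the window, the placement, the side of the gene, the strength threshold, the overlap and the members.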

Additional observations from a re-analysis of the deposited data

How the results depend on the processing

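No paired analysis was possible because each genotype has 1 hotspot list, and for the same reason no replicate could be left out. The count of members with a knockout-list hotspot at an end stayed within 1.5 times its value of 48 except when the knockout list was cut to the length of the wild type list. It was then 30 members (the share of all genes was then 16%), with 27 having a knockout-only hotspot, 10 J-domain, 2 Cct and 5 proteasome genes, and a median strength of 144.5. Leaving out the weakest 20% of each list left 7 proteasome genes, with 4 Psmd genes in place of 7 and 3 Dnajb genes in place of 6. The share of all genes was then 21.9%. The 11 Psmb genes had none under any of the windows or thresholds run. These could not have changed that count. The nearest knockout hotspot lay 4369 bp from a Psmb end, beyond the 2 kb window, and the thresholds only remove hotspots. Members with a wild type hotspot numbered 2, but 6 with a 2 kb window, 1 on the transcription start side and 1 with any RefSeq promoter start, an alternative chosen after seeing the data. The wild type share of all genes was not recomputed for these alternatives. Divided by the median of autosomal shared hotspots, the median strength was 0.715, a change of unit. The other 59 recomputed counts and medians stayed within 1.5 times or, for the median strength, within its interval. Depth limits the list: the weakest knockout hotspot has a strength of 16, the weakest wild type one 18, and gene ends below these are not seen.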
